A study of Mus musculus with 5 samples.

Results

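Cytosolic ribosomal proteins are the proteins of the 40S and 60S ribosomal subunits, which translate mRNAs outside the mitochondria. They were taken here as all probe sets whose annotated symbol is Rpl or Rps followed by digits, with an optional x, a, l or p, together with Rplp0, Rplp1, Rplp2 and Rpsa. Ribosomal S6 kinases and names ending in -ps were left out. This gave 58 members among 23279 named genes (24479 probe sets), 21 with small subunit names and 37 with large subunit names, each with 1 probe set. RefSeq lists 56 of them as protein-coding and 2, Rps4l and Rpl6l, as pseudogenes. Rplp2 has no annotated probe set in the table used here.

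The arrays measured total RNA of embryonic hearts at E10.5, about mid-gestation, from untreated embryos, in 3 samples of the genotype Control and 2 of the genotype KO. The series title names Lrrfip2, which encodes a leucine-rich repeat protein, and asks about the response to hypoxia during heart formation. The labels give neither the allele nor the promoter of any Cre, do not tell wild type from heterozygous controls, and do not state if hearts were pooled. P-values therefore measure the spread between these 5 samples, which may be technical.

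A ribosome needs its proteins in near-equal amounts, and cells keep their production matched. Most ribosomal protein mRNAs begin with a tract of pyrimidines, the TOP tract, through which the kinase mTOR and the RNA-binding protein Larp1 control their translation. Rapidly growing tissues such as the embryonic heart make many ribosomes, and shortage of single ribosomal proteins can stabilise p53, with the red cell lineage among the most sensitive. In humans, inherited loss of 1 copy of several of these genes causes Diamond-Blackfan anaemia.

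Promoter sequence was looked at first, as a feature that the choice by name did not use. RefSeq promoter windows of GRCm38.p6, from 250 bases before to 50 after the annotated start, were matched for 44 of the 58 members. The letters CGGAAG, the core recognised by ETS factors such as Gabpa, were searched on both strands. They were present in at least 1 window of 28 of these 44 genes (63.6%), of 32.6% of tested genes with a window and of 18.8% of all 27025 genes with a window. By single windows of 300 bases the shares were 55.4% for members and 16.9% for all. A pyrimidine tract, taken as a C followed by at least 4 bases that are each C or T and beginning within 10 bases of the annotated start on the sense strand, was found for 26 of 44 members (59.1%) and 34.4% of all genes. Among genes of mitochondrial ribosomal proteins, the shares were 55.2% for CGGAAG and 46.3% for the tract.

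The stretches below, of 60 bases before and 20 from the annotated start, are shown for some of the members that have a single window. Rps7, Rpl41, Rps15, Rpl13 and Rpl9 had lower KO levels, Rpl14 and Rps9 higher ones. Rps26, with the largest positive difference, also has a single window but is not shown, and its full window contains CGGAAG. Capitals mark CGGAAG or its complement CTTCCG.
Rps7 (chr12:28635934-28636013, strand -): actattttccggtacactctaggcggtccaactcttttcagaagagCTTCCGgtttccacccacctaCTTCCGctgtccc
Rpl41 (chr10:128549149-128549228, strand -): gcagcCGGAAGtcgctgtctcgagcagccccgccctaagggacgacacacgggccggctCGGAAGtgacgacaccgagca
Rps15 (chr10:80292371-80292450, strand +): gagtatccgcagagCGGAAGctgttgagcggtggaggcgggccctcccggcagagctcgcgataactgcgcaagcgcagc
Rpl13 (chr8:123102290-123102369, strand +): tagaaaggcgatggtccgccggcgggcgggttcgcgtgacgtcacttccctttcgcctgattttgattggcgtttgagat
Rpl9 (chr5:65391412-65391491, strand -): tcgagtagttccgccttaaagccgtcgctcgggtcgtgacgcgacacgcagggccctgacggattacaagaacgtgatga
Rpl14 (chr9:120571457-120571536, strand +): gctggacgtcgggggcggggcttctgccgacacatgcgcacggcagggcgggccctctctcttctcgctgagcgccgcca
Rps9 (chr7:3703981-3704060, strand +): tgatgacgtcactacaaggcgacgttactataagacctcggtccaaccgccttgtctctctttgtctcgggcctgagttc
Rps7 and Rpl41 carry 2 matches each in the stretch and Rps15 carries 1. The other 4 carry none in their full windows. By gene, CGGAAG was found in 17 of 26 lower and 8 of 11 higher tested members with a window, so both directions contained it.

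Values are log2 RMA levels, on which a difference of 1 is a doubling, and differences are KO minus Control. Array medians lay between 5.07 and 5.11, and the correlation between any 2 arrays over all probe sets was 0.986 to 0.996. Lrrfip2 was at 7.33, 8.07 and 8.08 in Control replicates 1 to 3 and at 6.36 and 6.22 in KO replicates 1 and 2, without overlap (limma, adjusted p = 0.355). Which exons were deleted is unknown here, so this probe set may check the genotype only in part. All 10 cardiomyocyte markers were tested, and their mean level was 10.99 to 11.16 on every array. The 14 tested endoderm markers averaged 8.25 in KO replicate 2 and 5.40 to 5.53 elsewhere. The 7 tested macrophage markers averaged 5.98 in KO replicate 1 and 5.32 to 5.46 elsewhere.

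A gene was tested if its mean level over the 5 arrays reached the 40th percentile of all genes, 4.44. This kept 50 members and left 8 untested as dim. No member passed an adjusted p under 0.05 in limma, nor did any other of the 13967 genes tested (0% called). The smallest adjusted p was 0.355 among members and 0.287 over all genes. At an unadjusted p under 0.05 there were 8 members, all lower in KO. That is 16% of those tested, against 8.78% of all genes, and 5.49% of all genes were lower at that limit. The share over all genes rose with level, from 4.97% below 6 to 16.5% at 10 and above. Since members had a median level of 7.68 against 6.56 for all genes, the shares are not like for like. Lists set against 8.78% further below also had median levels above 6.56. Among the 8, Rpl9 had a KO mean of 4.39, under the dim level, and passed the filter through its Control levels. Members with an unadjusted p under 0.05 and a higher level numbered 0, against 3.29% of all genes.

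Of the 50 tested members, 33 had a lower mean level in KO, 16 a higher one and 1 an equal one. That is 66% lower, against 54.4% of all genes tested. The median difference was -0.13, against -0.02 for all genes. Rpl9 and Rps16, both among the lower members, had KO means under the dim level and passed the filter through their Control levels. The groups did not overlap for 21 members (42%), 14 of them lower and 7 higher. Over all genes 21.3% did not overlap, 13.1% lower and 8.18% higher. These shares are not like for like. Values equal on at least 2 arrays occurred in 14% of members and 54.8% of all tested genes. A gene with a value shared between the groups cannot count as not overlapping. The share over all genes also rose with level, from 13.2% below 6 to 35.8% at 10 and above. The median level was 7.68 for members and 6.56 for all genes. The largest differences ran from -1.12 (Rps15) to 0.40 (Rps26).

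How the 2 KO samples compared depended on the summary used. The median over members of the level minus the Control mean was -0.21 in KO replicate 1 and -0.05 in KO replicate 2, while the Control arrays lay at -0.02, 0.03 and -0.02. Below the Control mean were 33 members in KO replicate 1 and 30 in KO replicate 2, with 26 below it in both and 12 above it in both. The mean over members instead lay at -0.20 and -0.15 in KO replicates 1 and 2. Gene by gene, KO replicate 2 was the lower of the KO arrays in 24 of 50 members, and the median of KO replicate 2 minus KO replicate 1 was 0.01. Without KO replicate 1 the median difference was -0.05, and without KO replicate 2 it was -0.21. KO replicate 2 carried the endoderm transcripts, and KO replicate 1 had higher macrophage and endothelial markers. The 10 endothelial markers averaged 8.36 in KO replicate 1 and 7.79 to 8.02 elsewhere. The part of these markers in the members' values was not tested. In whole hearts, fewer cells of a type and less RNA per cell cannot be told apart.

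**Figure D1:**
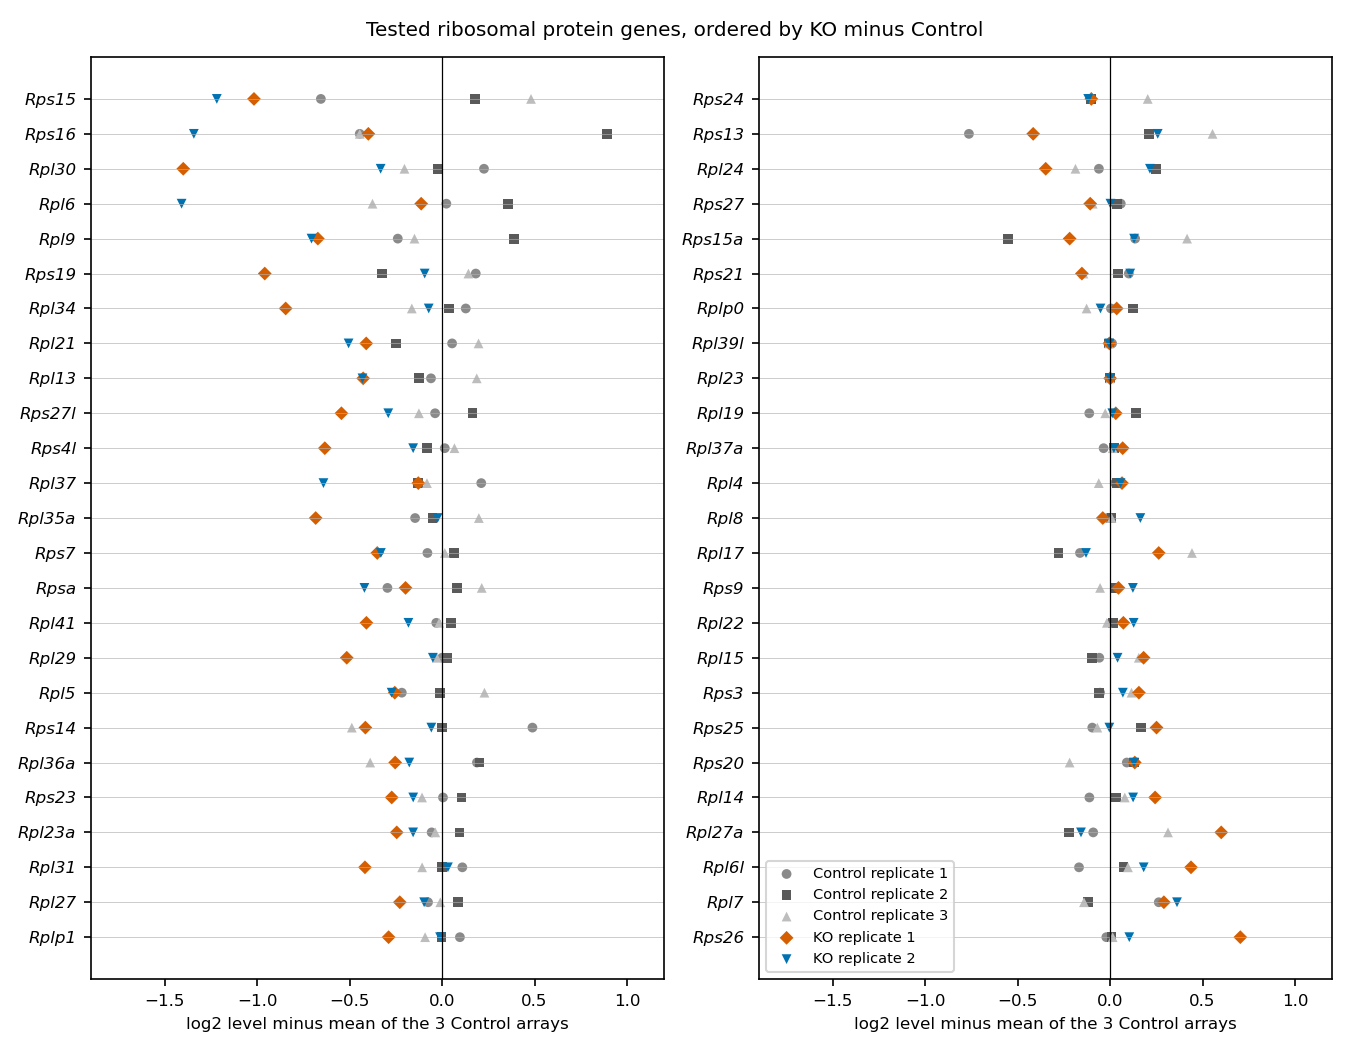
Each row is 1 of the 50 tested ribosomal protein genes, and each symbol is 1 array's log2 level minus the mean of the 3 Control arrays. Rows run from the lowest difference, Rps15 at -1.12, to the highest, Rps26 at 0.40.

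Replicates of 1 group also differed more for these genes than for most. The median range over the 3 Control arrays was 0.26 for members and 0.15 for all tested genes, and the median size of the gap between the KO arrays was 0.20 and 0.15. Rps16 and Rps13, both of the small subunit, had the widest Control ranges. Rps16 was at 4.76, 6.10 and 4.76 in Control and 4.81 and 3.87 in KO. Rps13 was at 5.71, 6.68 and 7.03 in Control and 6.06 and 6.73 in KO. The KO mean of Rps16, 4.34, is under the dim level. In both genes the spread within a group covered much of the other group, so differences of -0.87 and -0.08 (SE 0.58 and 0.49) were not distinguishable from 0. Rpl23, in contrast, had 1 identical value, 7.37, on all 5 arrays. Equal values on at least 2 arrays occurred in 7 of the 50 members (14%), against 54.8% of all tested genes. Such ties can narrow a range, and their part in the median ranges and gaps above was not tested.

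Among small subunit genes, 14 of 19 tested were lower and 5 higher, with a median of -0.11. Rps7, which takes part in assembling the 40S subunit, had the smallest p of all members. Its level was 7.42, 7.57 and 7.52 in Control replicates 1 to 3 and 7.15 and 7.17 in KO. Both KO values lay below all Control values, by more than the spread within either group. The difference was -0.34 ± 0.06 (SE), 1.27-fold lower, with an unadjusted p of 0.00364 and an adjusted p of 0.355 in limma. Over the 14 alternative fits the difference ranged from -0.38 to -0.31. These fits reuse the same arrays, and averaging probe sets repeats the main fit, so they are no independent support.

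Rps27l encodes a close relative of Rps27 and is known as a p53 target. It read 8.66, 8.86 and 8.57 in Control and 8.15 and 8.41 in KO, again without overlap. The difference was -0.42 ± 0.13 (SE; unadjusted p = 0.031, adjusted p = 0.519, limma). Rps27 itself was at 5.93, 5.91 and 5.78 in Control and 5.76 and 5.87 in KO, with KO replicate 1 just below the Control range and KO replicate 2 inside it (difference -0.05, 95% interval -0.25 to 0.14). The difference between these paralogs was not tested.

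Rps15, a protein of the small subunit head that is needed for export of the precursor from the nucleus, differed most. Its levels were 5.11, 5.94 and 6.25 in Control and 4.75 and 4.55 in KO. No KO value reached the Control range, yet Control replicate 1 lay closer to the KO arrays than to Control replicate 3. The difference was -1.12 ± 0.38 (SE), 2.17-fold lower, with an adjusted p of 0.549 in limma. Rps19, the gene most often mutated in Diamond-Blackfan anaemia, was at 7.12, 6.61 and 7.08 in Control and 5.98 and 6.84 in KO. Only KO replicate 1 lay outside the Control range (difference -0.53, adjusted p = 0.57, limma).

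Rps26, which lines the channel where mRNA leaves the small subunit, had the largest positive difference. Its Control levels were 8.96, 8.98 and 8.99, and its KO levels 9.68 and 9.08. Both KO values were higher, KO replicate 1 by far the more (difference 0.40 ± 0.20, SE, adjusted p = 0.57, limma). Rps9, important for decoding accuracy, was at 11.79, 11.79 and 11.71 in Control and 11.81 and 11.89 in KO, a difference of 0.08. Its groups touched closely without overlapping.

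**Figure D2:**
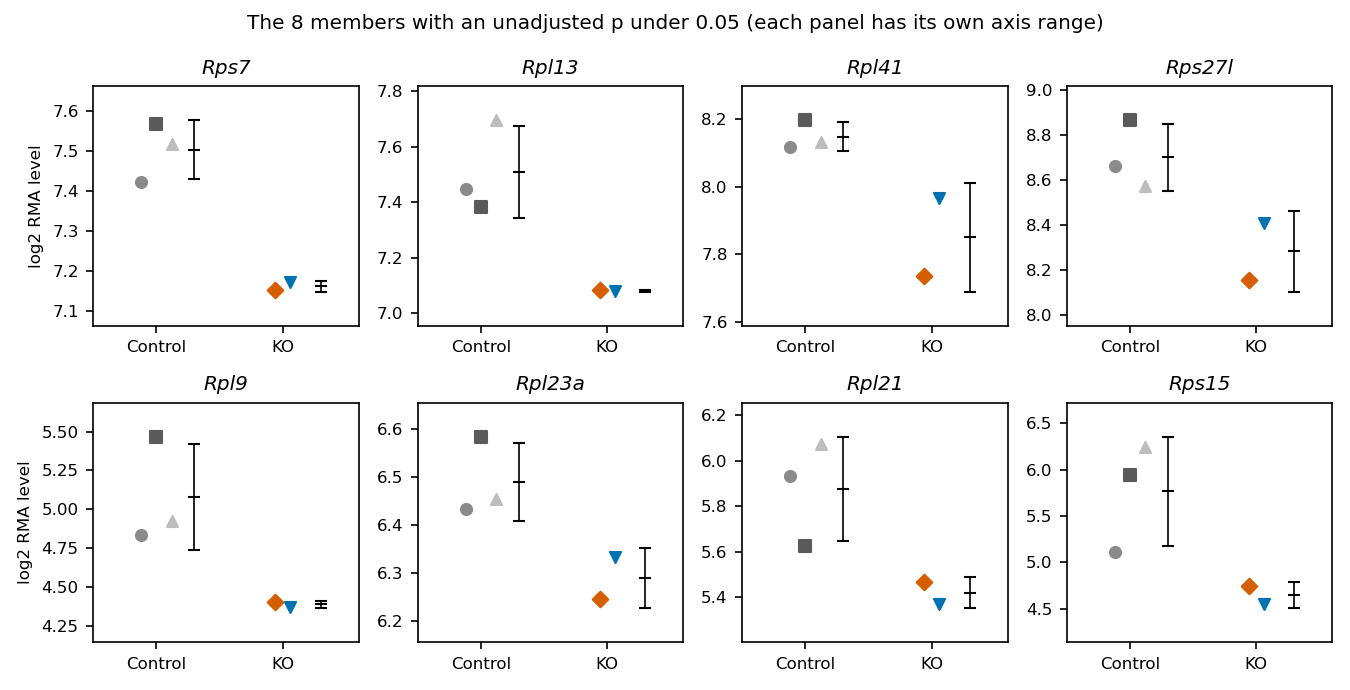
Log2 RMA levels of the 8 members with an unadjusted p under 0.05, with 1 symbol per array and the mean and SD of each group beside it (3 Control and 2 KO arrays). In each panel both KO values lie below all Control values, and the gap is narrowest against the Control spread in Rps15.

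Large subunit genes gave 19 lower, 11 higher and 1 equal among 31 tested, with a median of -0.15. Rpl13, a core protein of the subunit, was at 7.45, 7.38 and 7.70 in Control and 7.08 in both KO samples. The KO arrays nearly coincided below the Control range, and the difference was -0.43 ± 0.11 (SE, unadjusted p = 0.0172, adjusted p = 0.457, limma). Rpl41, a very short peptide at the interface of the subunits, was at 8.12, 8.20 and 8.13 in Control and 7.74 and 7.96 in KO. Its Control values were tight and both KO values were lower, by -0.30 ± 0.08 (SE, adjusted p = 0.494, limma).

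Rpl9, also linked to Diamond-Blackfan anaemia, stood at 4.84, 5.47 and 4.93 in Control and 4.40 and 4.37 in KO. Both KO values were under the dim level of 4.44, so the gene passed the filter through its Control levels, and its difference of -0.69 ± 0.22 (SE) rests partly on near-background signal. Rpl23a, at the rim of the exit tunnel, was at 6.43, 6.58 and 6.45 against 6.24 and 6.33 in KO, a difference of -0.20. Rpl21 was at 5.93, 5.63 and 6.07 against 5.47 and 5.37, a difference of -0.46. Each of these 3 genes had an unadjusted p under 0.05 and an adjusted p between 0.534 and 0.543 in limma, and none had overlapping groups.

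Of the higher large subunit genes, Rpl22 had the smallest p. This RNA-binding protein of the 60S subunit was at 11.64, 11.65 and 11.62 in Control and 11.71 and 11.76 in KO. The difference was small but lay outside a narrow Control range (0.10 ± 0.04, SE, adjusted p = 0.57, limma). Rpl14 was at 8.15, 8.29 and 8.34 in Control and 8.50 and 8.39 in KO, a difference of 0.18. Rpl7 was at 4.72, 4.34 and 4.32 in Control and 4.75 and 4.82 in KO, where Control replicate 1 came close to the KO arrays (difference 0.33). The locus Rpl6l, a RefSeq pseudogene, was at 9.34, 9.58 and 9.60 in Control and 9.94 and 9.69 in KO (difference 0.31). The protein-coding gene Rpl6 went the other way, at 5.23, 5.56 and 4.83 against 5.09 and 3.80, with only KO replicate 2 outside the Control range and under the dim level (difference -0.76 ± 0.48, SE).

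The stalk of the large subunit, where Rplp0 anchors Rplp1 and Rplp2 and translation factors are recruited, was represented by 2 genes. Rplp0 was at 8.31, 8.43 and 8.18 in Control and 8.34 and 8.26 in KO, inside the Control range. The difference was -0.01 with a 95% interval of -0.26 to 0.24, and its sign turned after another quantile normalization. Rplp1 was at 12.51, 12.41 and 12.32 in Control and 12.12 and 12.40 in KO. Only KO replicate 1 lay below the controls (difference -0.15, 95% interval -0.46 to 0.16).

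Around the exit tunnel, through which the new peptide leaves, 2 of 6 tested members were lower and 4 higher, with a median of 0.04. Besides Rpl23a and Rpl22 these were Rpl4 (0.06), Rpl31 (-0.19), Rpl19 (0.02) and Rpl17 (0.07). The signs of Rpl31, Rpl19 and Rpl17 turned on leaving out single arrays. Of the genes linked to Diamond-Blackfan anaemia, 14 of 21 are among the members and 13 were tested. There were 10 lower and 3 higher, with a median of -0.16. An unadjusted p under 0.05 was reached by Rps7 and by Rpl9, whose KO values are under the dim level, or 15.4% against 8.78% of all genes. The 11 tested erythroid markers were all lower on average in KO, with mean levels of 7.30 and 7.33 in the KO arrays and of 7.76, 7.21 and 8.54 in Control replicates 1 to 3. The Control arrays differed among themselves by more than that. With the erythroid level as a covariate, 32 of 50 members (64%) were lower, against 53.9% of all genes, and the members' median was -0.17.

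Several ribosomal proteins have tissue-restricted paralogs. Of these, Rpl3l and Rpl10l were dim and Rpl39l was tested. Rpl3l, which replaces Rpl3 in mature striated muscle, was at 3.75, 3.78 and 3.57 in Control and 3.75 and 3.55 in KO, under the dim level on every array. Rpl3 was at 4.19, 4.48 and 4.34 in Control and 4.78 and 4.05 in KO, also dim by its mean. The germ cell paralog Rpl10l was between 2.95 and 3.25, and Rpl10 itself between 2.25 and 2.60. Rpl39l, another gene known from germ cells, was at 5.02 or 5.03 on every array. Since ubiquitous genes such as Rpl3, Rpl10, Rps2 and Rps29 were among the dim members, a low probe set level here does not show a scarce mRNA, and levels of different probe sets were not compared. The other dim members were Rpl10a and Rpl32l. Among the 8 dim members differences ran from -0.35 (Rps29) to 0.19 (Rpl10).

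Rpl36a was at 8.06, 8.07 and 7.48 in Control and 7.61 and 7.69 in KO, inside the Control range (difference -0.22). Its relative Rpl36al, whose suffix is outside the naming rule, was at 10.14, 10.22 and 9.88 against 9.53 and 10.04 (difference -0.30). Rps4l was at 8.05, 7.95 and 8.10 in Control and 7.40 and 7.88 in KO (-0.40), and Rpl7l1 differed by -0.02, with the sign turned after another quantile normalization. Fau, which encodes a ribosomal protein fused to a ubiquitin-like domain, differed by 0.07. Pseudogene probe sets ending in -ps, which are no members, were higher in 5 of 6 tested cases, with a median of 0.17 and shifts of 0.28 and 0.08 in KO replicates 1 and 2. Ribosomal protein genes have many near-identical processed copies, and whether probe sets here share targets with them was not tested.

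The difference changed with the level of the probe set, in a division by mean level over the 5 arrays that was chosen after the values were seen. From the dim level to 6, 11 of 12 members were lower, with a median of -0.42. Rpl9 and Rps16, whose KO means lay under the dim level, were among them. Between 6 and 8 there were 12 of 15 lower with a median of -0.21, and between 8 and 10 there were 8 of 14 with a median of -0.06. At 10 and above, only 2 of 9 were lower and the median was 0.06. Over all tested genes the share that was lower went the other way, from 47.7% in the lowest of these ranges to 63.0% in the highest. The median Control range of the members narrowed from 0.44 to 0.10 over the same ranges, and that of all genes from 0.16 to 0.12. Members at low levels thus had both the lowest differences and the widest replicate spread.

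**Figure D3:**
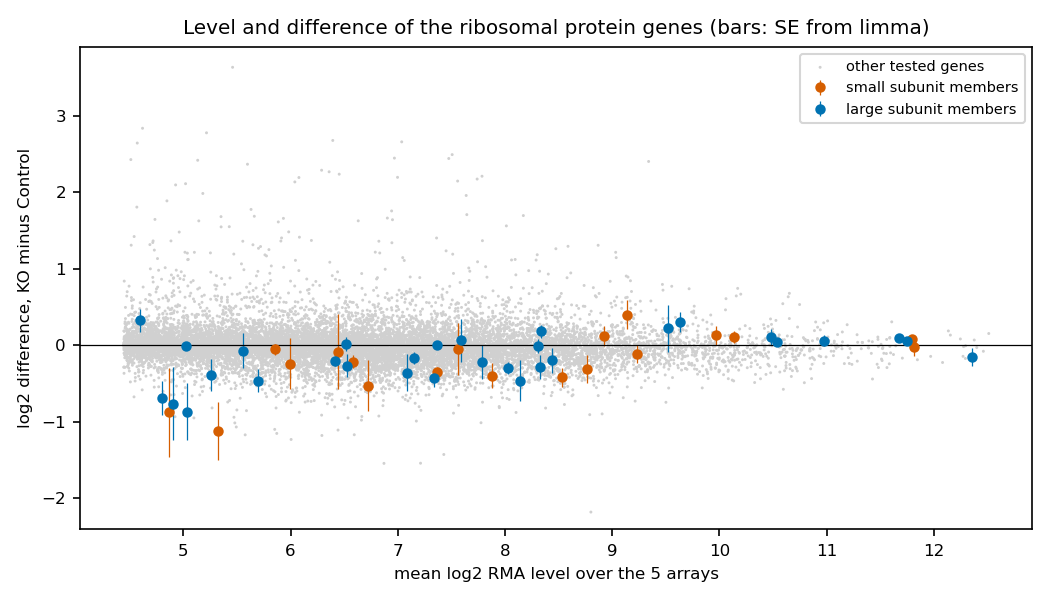
The horizontal axis is the mean log2 level over the 5 arrays and the vertical axis the log2 difference, KO minus Control, with the SE from limma as bars for members and grey points for other tested genes. Members with a mean level under 6 reach -1.12, while those at 10 and above lie between -0.15 and 0.11.

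Other genes of the ribosome pathway were counted from lists. Of 67 genes for ribosome biogenesis, the making of subunits in the nucleolus, 51 were lower and 16 higher, with a median of -0.11. An unadjusted p under 0.05 was reached by 7, all lower, or 10.4% against 8.78% of all genes. The helicase gene Ddx18 was at 8.03, 7.88 and 7.96 in Control and 7.73 and 7.75 in KO (-0.21), and the processing factor Rrp12 was at 6.44, 6.47 and 6.77 against 5.92 and 6.17 (-0.51). Imp3 and Nop14, both parts of the complex that processes the small subunit's rRNA, were higher by 0.11 and 0.32. For Ddx18, Rrp12 and Imp3 the KO values did not overlap the controls, and adjusted p-values of the 4 genes were 0.475 to 0.57 in limma. Here and in the lists below, the genes named had the smallest p per direction, which favours groups without overlap. Of the biogenesis list 29.9% did not overlap, against 21.3% of all genes, a comparison that is not like for like, as above.

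For RNA polymerase I, which transcribes the ribosomal RNA precursor, and its factors, 14 of 18 were lower and 4 higher, with a median of -0.14. Rrn3, which brings the polymerase to its promoter, was at 7.99, 7.95 and 8.14 in Control and 7.80 and 7.78 in KO (-0.24). Polr1c, a subunit shared with RNA polymerase III, went the other way, at 8.63, 8.59 and 8.72 in Control and 8.91 and 8.81 in KO (0.22). Polr2f differed by -0.26 and Cd3eap by 0.07. The smallest adjusted p of these 4 was 0.489 in limma.

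Translation factors and other genes whose mRNAs carry a TOP tract had another balance, with 15 of 21 higher, 6 lower and a median of 0.07. Eif4b, which assists the cap-binding helicase, was at 9.57, 9.44 and 9.68 in Control and 10.23 and 9.78 in KO (0.44), and elongation factor Eef2 was higher by 0.14. Btf3 differed by -0.37 and Eef1g by -0.32. No gene of this list had an unadjusted p under 0.05, against 8.78% of all genes. Its difference from the ribosomal proteins was not tested.

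Among regulators of ribosomal protein genes and their translation, 12 of 21 had higher levels in KO and 9 had lower ones (median 0.01). Myc, which drives ribosome production, was at 7.30, 7.25 and 7.75 in Control and 7.93 and 8.06 in KO, a difference of 0.56 ± 0.18 (SE). Eif4ebp1, a repressor of cap-dependent translation, was at 8.81, 8.79 and 8.79 in Control and 9.46 and 9.13 in KO, a difference of 0.50 ± 0.11 (SE). Both lay above all controls on both KO arrays, with adjusted p-values of 0.541 and 0.418 in limma. Cnbp, an RNA-binding protein of TOP mRNAs, differed by -0.12 and Tsc2, which restrains mTOR, by -0.30.

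Of 13 tested p53 targets, 8 were lower and 5 higher, with a median of -0.13. Ccng1 was at 9.58, 9.58 and 9.59 in Control and 9.24 and 8.99 in KO (-0.47, adjusted p = 0.355, limma), and Perp differed by -0.45. The polymerase gene Polk was higher by 0.71 and Cdkn1a by 0.55, the latter with overlapping groups. The list therefore contained differences of both signs.

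Mitochondrial ribosomal proteins, which form the separate ribosome of that organelle, were lower more often. These were 67 of 75 tested (89.3%), against 54.4% of all genes, with a median of -0.22. An unadjusted p under 0.05 was reached by 25, all lower, or 33.3% against 8.78% of all genes. Of all genes, 5.49% were lower at that limit. Mrpl18 was at 9.99, 9.99 and 10.04 in Control and 9.63 and 9.60 in KO (-0.39), and Mrpl16 differed by -0.40, while Mrpl24 and Mrpl45 were higher by 0.19 and 0.08. Their median shift was -0.25 in KO replicate 1 and -0.18 in KO replicate 2, and their mean shift was -0.26 and -0.18. The difference between the lists was not tested.

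**Figure D4:**
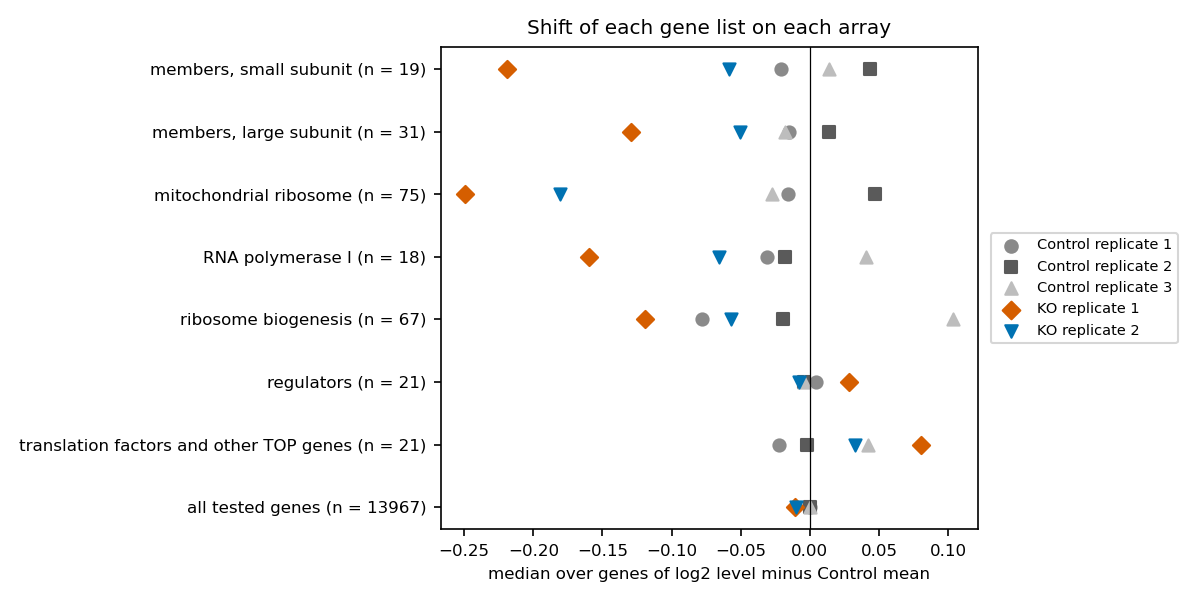
Each symbol is the median over a list's tested genes of the log2 level minus the Control mean on 1 array. For small and large subunit members KO replicate 1 stands at -0.22 and -0.13 and KO replicate 2 at -0.06 and -0.05, and for the mitochondrial ribosome the values are -0.25 and -0.18.

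Which single genes stood out depended on the arrays used. Without KO replicate 2, in a fit where the lone KO sample is assumed to vary like the controls, Rps26 differed by 0.70. Rpl29 differed by -0.52 in that fit. With all arrays Rpl29, a heparin-binding large subunit protein, was at 8.44, 8.47 and 8.41 in Control and 7.93 and 8.39 in KO, so that KO replicate 2 nearly met the controls. Also without KO replicate 2, 10 members, 9 lower and 1 higher, had an unadjusted p under 0.05, which is 10 of 50 against 27.3% of all genes. Without KO replicate 1, Rps26 differed by 0.10 and Rpl29 by -0.05. There, 7 members had an unadjusted p under 0.05, 4 lower and 3 higher (Rpl8, Rpl22 and Rps26), or 7 of 50 against 17.0% of all genes. Without Control replicate 2 there were 4 such members, all lower, against 5.66% of all genes. Leaving out either KO array thus put the members' share below that of all genes.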

How the data were processed

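RNA of 5 embryonic heart samples, 3 Control and 2 KO, was hybridised to Affymetrix arrays after amplification of 20 ng total RNA, per the labels' protocols. The authors deposited log2 levels, made with Affymetrix Expression Console and RMA (background correction, quantile normalization and probe summary) per the submitters' processing notes. Tool versions and the annotation build: not given in the sources used here. No scanner values were used and precision is limited by having 5 arrays.

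Of 24479 probe sets, named by Entrez number, 23281 have 1 symbol, 0 several and 1198 none. The brightest set per gene was kept (23279 genes), and genes with a mean under the 40th percentile (4.44) were left out, leaving 13967. KO was compared with Control by limma 3.58.1 (R 4.3.3; lmFit, eBayes, two-sided, no covariate) with Benjamini-Hochberg adjustment over all genes tested, at 0.05. With 10 splits of 5 arrays, no permutation p could fall below 0.1. The steps were tested on simulated data.

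Members and lists were chosen with earlier results of these data known. Lists are described by counts and medians, without a list test. Named were the 6 members with the smallest p per direction, the 2 with the widest Control range, stalk, paralog and dim members, and up to 2 genes per direction of each list; Rps15, Rpl21, Rps19, Rpl6, Rpl29, Rpl8, Rpl30, other Rpl genes of the exit tunnel and Rpl23 were chosen after their values were seen. The endothelial markers had a median KO minus Control of 0.23 (10 genes), with median shifts of 0.47 and 0.04 in KO replicates 1 and 2. The cell type marker lists without a value elsewhere in the text gave medians of -0.03 for epicardium (7) and -0.11 for neural crest and neural (3). Alternatives concerned the dim filter, the variance prior, array weights, normalization, averaging of probe sets, the erythroid level and leaving out each array. Promoter windows are RefSeq's, of GRCm38.p6.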

Additional observations from a re-analysis of the deposited data

How the results depend on the processing

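Over all alternatives the members stayed mostly lower in KO, with 30 to 34 of 50. The counts were 23 of 39 under the stricter filter and 37 of 58 without a filter. No member passed the adjusted threshold in any fit that kept both KO arrays. Of all genes tested, 53.1% to 59.3% were lower in the fits with 50 members. Under the stricter filter, 59.0% of members and 58.0% of all genes were lower, and without a filter 63.8% and 51.9%. The median difference of the members was -0.073 with no filter on dim genes and -0.079 under a filter at the 60th percentile. It was -0.17 after adding the mean erythroid level to the model. Leaving out 1 array gave -0.21 to -0.051, from without KO replicate 2 to without KO replicate 1. Members at an unadjusted p under 0.05 numbered 5 with the stricter filter and 2 with array weights (Rpl41 and Rps7), and 4 to 10 on leaving out 1 array. The share over all genes was 10.9% with the stricter filter and 5.61% with array weights, and 5.53% to 27.3% on leaving out 1 array, highest without KO replicate 2. Genes past the adjusted threshold numbered 0 to 983 on leaving out 1 array, and members 0 to 2. The cause of these changes was not tested, except that the filters change which members enter. Of 57 tested genes named in the text, not counting Rpl8, Rpl23 and Rpl30, 10 turned sign in at least 1 alternative. Rpl8 turned as well, from 0.06 with all arrays to -0.04 without KO replicate 2. Rps13 was at 0.13 with array weights and 0.11 with the erythroid term, and ran from -0.46 to 0.26 on leaving out 1 array, turning without Control replicate 2, Control replicate 3 or KO replicate 1. Rplp0 was at 0.0091 and Rpl7l1 at 0.0026 after quantile normalization again, and Fau was at -0.0036 and Rpl19 at -0.036 with the erythroid term. On leaving out 1 array, Rplp0 ran from -0.072 to 0.053 (turning without Control replicate 2 or KO replicate 2), Fau from -0.044 to 0.19 (KO replicate 2), Rpl19 from -0.035 to 0.091 and Rpl39l from -0.0073 to 0.00055 (Control replicate 1). Turning without KO replicate 1 were Rpl31 from -0.42 to 0.031, Mrpl45 from -0.12 to 0.28, Rpl7l1 from -0.084 to 0.037, Rps27 from -0.11 to 0.0016 and Rpl17 from -0.13 to 0.29, the last also without Control replicate 1 or 2. Averaging probe sets changed nothing, since each member has 1. No paired analysis was possible because the labels give no replicate numbers shared between the groups, and the numbers used here follow accession order. Background could not be judged by probe, which limits the dim members and the tested members with values under the dim level (Rpl9, Rps16, Rpl6, Rpl30 and Rpl7).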
